A study of Mus musculus with 11 samples.

Results

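Skeletal muscle lineage genes were followed in mouse 3T3-L1 cells before and after these cells became fat cells. The set held 42 genes listed by name as marks of muscle identity: contractile proteins, calcium-handling proteins, muscle enzymes and myogenic transcription factors. Probes were assigned through the array annotation, and 39 of the 42 genes had at least 1 probe among the 19057 genes measured. Myh3, Tnnt2 and Cacna1s had none and were not analysed here. Each gene was read on its brightest probe, the one with the highest mean over all arrays, out of 81 probes in all. The list rests on gene names and on no cut in measured values.

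3T3-L1 is a mouse fibroblast line that turns into adipocytes under a hormonal cocktail. Preadipocytes (2 arrays) were taken undifferentiated at day 0 and carried a non-target shRNA, as did the control adipocytes (3 arrays). Adipocytes carrying shRNAs against Tmem120a, against Tmem120b or against both, called the double knock-down here, gave 2 arrays each. Differentiation was induced with insulin (0.5 µM), dexamethasone (1 µM), rosiglitazone (1 µM) and the phosphodiesterase inhibitor IBMX (0.5 mM), and only insulin and rosiglitazone were kept in the later medium. The sample labels put the RNA of all 9 differentiated arrays at day 9, whereas day 6 is stated in the series text and in the methods, so the true day is unsettled. The shRNAs were delivered by lentivirus into stable lines, and nothing in the sources says that a group held more than 1 line. The effect of a knock-down therefore cannot be told apart from a property of its line. Replicates are described as biological, without saying which step was repeated.

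Skeletal muscle identity is set by the myogenic factors Myod1, Myf5, Myog and Myf6, which with Mef2 proteins switch on the sarcomere, the repeating unit in which myosin thick filaments pull on actin thin filaments. Troponins on the thin filament make this pull depend on calcium, which Ryr1 releases from its store and Atp2a1 pumps back. Tmem120a and Tmem120b are transmembrane proteins of the nuclear envelope that are expressed in fat, and the study was about what loss of Tmem120a does to genome organisation and fat metabolism. The comparisons here ask how muscle genes read in fat cells with and without the knock-downs.

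Values are log2 probe signals after quantile normalisation by the authors, so that 1 unit is a doubling. A signal counts as above background when it exceeds log2 6.87, which is 3 spreads above the mode of all values (mode 6.66, spread 0.0721, taken from the values under the mode). Signals of different probes are not compared with each other. Replicate arrays correlated at r of 0.995 to 0.998 over the brightest probes of the 19057 genes. Before normalisation the median signal of the 6 knock-down arrays was 6.58 to 6.7, below the 6.75 to 7.1 of the other 5 arrays. The part this offset plays in the comparisons with knock-downs was not tested beyond the alternative scalings given further on. Both targets fell where their shRNA was used: Tmem120a by 1.33 on the log2 scale in its own knock-down and by 1.12 in the double knock-down, while Tmem120b fell by 2.07 and fell by 1.62 (limma, adjusted p of at most 4.24e-06). Of 19 adipocyte markers measured, 17 rose with differentiation and 0 fell, beside 11.9% higher and 11.1% lower over all genes. Their mean signal per array was 7.60 to 7.62 in preadipocytes and 11.15 to 11.19 in control adipocytes.

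Most of the muscle genes, 27 of 39, were not above background on every array of any group. Of the 39 genes measured, 12 were above background on every array of at least 1 group, while over all genes the share was 53.1%. On the brightest probe, another 10 exceeded the threshold on some arrays only, and 17 stayed at background on all 11 arrays. For 2 of the 17, Myog and Mylpf, another probe exceeded it on 1 array. The 12 genes were the actin Acta1, the myosin light chains Myl1 and Myl4, the troponins Tnnt1, Tnni2, Tnnc1 and Tnnc2, the Z-disc protein Actn3, the intermediate filament Des, the oxygen carrier Mb, the enolase Eno3 and the ubiquitin ligase subunit Fbxo32. Preadipocytes had 8 genes above background, control adipocytes 10, the Tmem120a knock-down 9, the Tmem120b knock-down 12 and the double knock-down 10. On every array of every group 6 were above background, namely Acta1, Myl4, Tnnc1, Des, Fbxo32 and Eno3. A further 42 probes read 19 of the genes, and 34 of these probes were at background on every array and 1, for Mb, was called in any comparison.

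**Figure D1:**
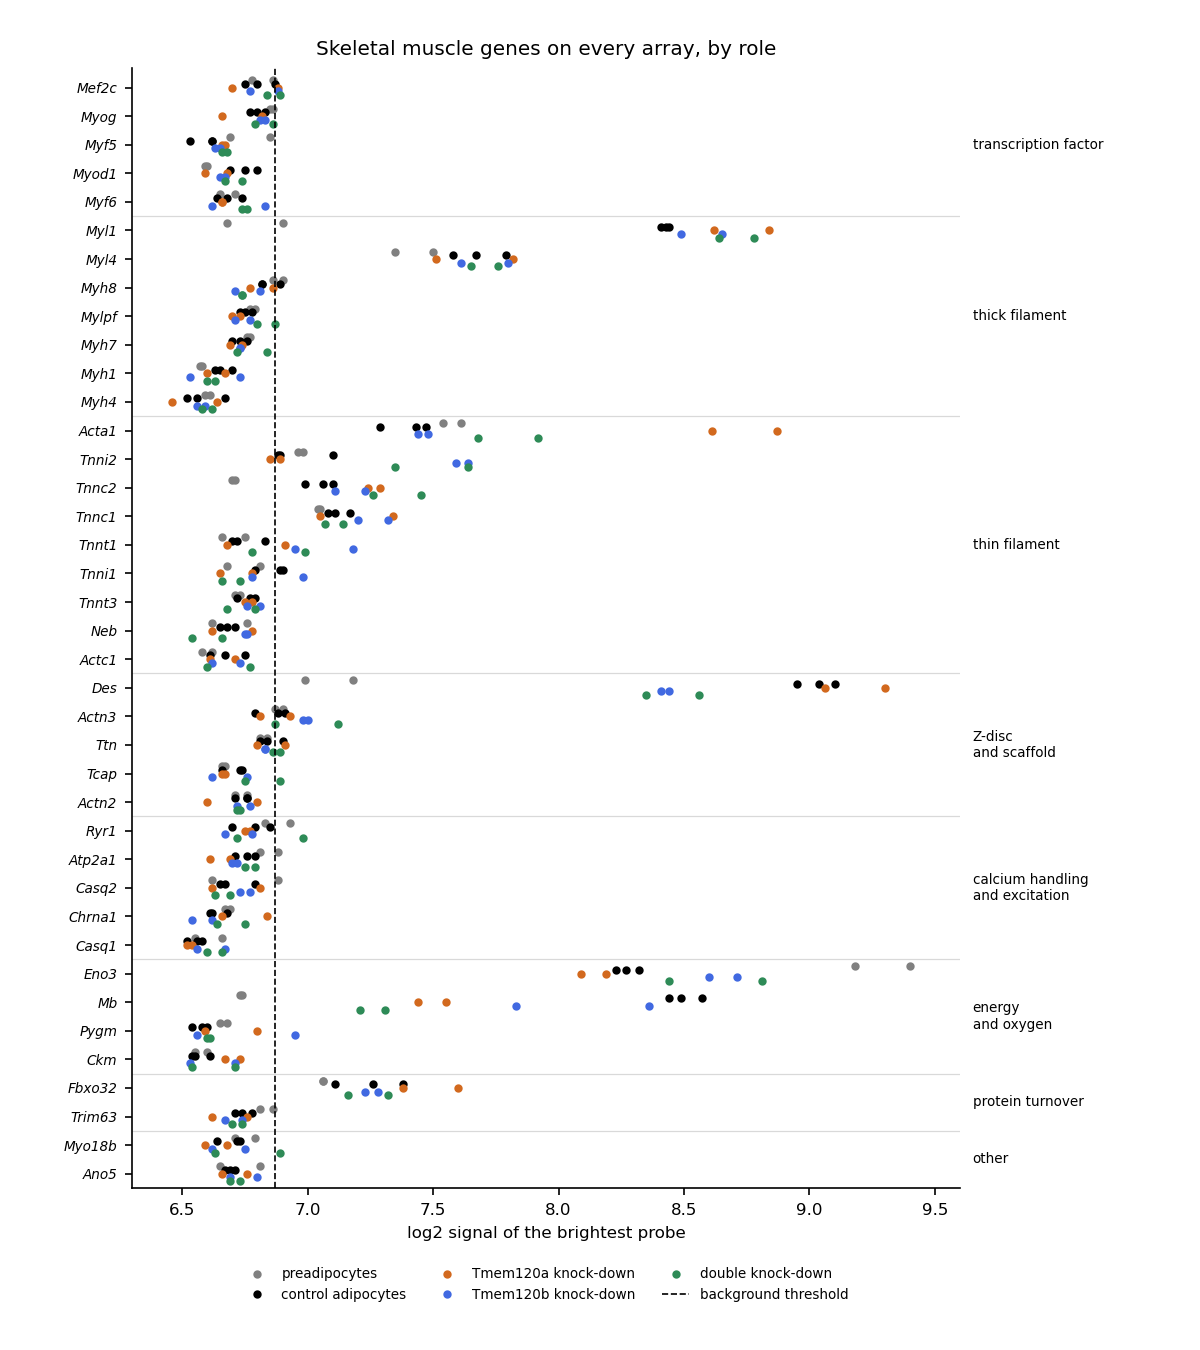
Log2 signal of the brightest probe (horizontal axis) of each of the 39 measured muscle genes (rows, grouped by role), with 1 point per array coloured by group and a dashed line at the background threshold of 6.87. All 5 transcription factors and all 5 calcium-handling and excitation genes lie left of the line or close to it, while Des, Eno3, Acta1, Myl1 and Mb reach signals above 8.

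The myogenic transcription factors were not detected above background in any whole group. The brightest probes of Myod1, Myog, Myf5 and Myf6 stayed between 6.53 and 6.86 on all 11 arrays. Mef2c, which works beside them in muscle and also acts in other tissues, lay between 6.70 and 6.89 and exceeded the threshold on 3 arrays, 1 in each knock-down group. None of the 5 passed the test in any comparison.

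The genes of calcium handling and excitation likewise stayed low. Casq1, the calcium buffer of fast fibres, and Chrna1, the acetylcholine receptor subunit of the neuromuscular junction, were at background on every array. Ryr1, Atp2a1 and the cardiac and slow-fibre buffer Casq2 exceeded the threshold on 1 or 2 arrays each, between 6.61 and 6.98. The arrays that did so were spread over preadipocytes and the double knock-down.

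Among the thick filament genes, the adult and neonatal myosin heavy chains Myh1, Myh4, Myh7 and Myh8 lay between 6.46 and 6.90 and the fast regulatory light chain Mylpf between 6.70 and 6.87. Myl1 and Myl4 were the exceptions, described with their values in the comparisons. Of the thin filament genes, Actc1, the alpha-actin of heart, Tnnt3, the fast troponin T, and Neb, the nebulin ruler of the filament, were at background throughout. Tnni1, the slow troponin I, exceeded the threshold on 3 arrays, with a highest signal of 6.98 on a Tmem120b knock-down array. Ttn, the giant protein spanning the sarcomere, was read on 12 probes and its brightest stayed between 6.80 and 6.91. Actn2 and Tcap of the Z-disc, the creatine kinase Ckm, the muscle glycogen phosphorylase Pygm and the ubiquitin ligase Trim63 also stayed at or near background, as did Ano5 and Myo18b, a membrane protein and an unconventional myosin that are mutated or needed in muscle. Over all 27 genes that were above background in no whole group, signals ran from 6.46 to 6.98 and 0 passed the test in any of the 10 comparisons. A gene at background in both groups can change without being seen, so no fold change is given for them.

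Turning preadipocytes into control adipocytes moved 4 muscle genes. Des, Mb and Myl1 rose and Eno3 fell, where a call needs a limma adjusted p no higher than 0.05 and a log2 change no smaller than 0.5, or 1.4-fold, in either direction. Over all genes this comparison called 23% (11.9% higher and 11.1% lower), so 4 of 39 is below the share over all genes. The median log2 change of the 39 genes was -0.01, beside 0.00 over all genes.

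Desmin (Des), the intermediate filament that ties neighbouring Z-discs together and is also made in smooth muscle, had signals of 7.18 and 6.99 in preadipocytes. In the control adipocytes it stood at 9.04, 8.95 and 9.10. The groups were far apart, with a rise of 1.94 ± 0.088 (log2 change ± SE, 3.85-fold, adjusted p = 1.7e-09, limma). In RNA of a whole culture, as for all genes here, more RNA per cell cannot be told apart from more cells that make it. Myoglobin (Mb), the oxygen-binding protein of red muscle, was at background in both preadipocyte arrays, at 6.73 and 6.74. It reached 8.44, 8.49 and 8.57 in control adipocytes, a rise of 1.76 ± 0.11 on the log2 scale (adjusted p = 5.06e-08). Since it was at background in preadipocytes, this is a change of at least 3.09-fold, counted from the threshold. A second Mb probe rose by 0.99 (adjusted p = 8.45e-06).

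Myl1, an essential light chain of fast skeletal myosin, gave 6.68 and 6.90 in preadipocytes, 1 of them at background. The control adipocytes were at 8.43, 8.41 and 8.44, all higher than either preadipocyte array. The log2 change was 1.64 ± 0.086 (adjusted p = 6.86e-09), and no fold is given since 1 of 2 preadipocyte arrays measured the gene. It was seen on 1 of 3 Myl1 probes: the other 2 stayed at or near background in all groups and did not pass the test in any comparison, and the sequences of the probes were not at hand to say which transcripts each reads. Eno3, the muscle form of the glycolytic enzyme enolase, went the other way, from 9.40 and 9.18 in preadipocytes to 8.23, 8.27 and 8.32 in control adipocytes. It fell by 1.01 on the log2 scale (SE 0.098, adjusted p = 2.62e-06). Scaling the non-normalised signals to a common median gave a smaller Eno3 change of -0.61, and leaving them unscaled gave -0.47, which no longer passed (adjusted p = 0.172).

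The remaining genes above background stayed within 0.5 log2 units. Acta1, the alpha-actin of skeletal muscle, was at 7.54 and 7.61 in preadipocytes and at 7.43, 7.47 and 7.29 in control adipocytes (log2 change -0.18, adjusted p = 0.204). Tnnc2, the fast calcium sensor of the thin filament, was at background in preadipocytes, at 6.71 and 6.70, and at 7.06, 7.10 and 6.99 in control adipocytes. Its log2 change of 0.34 had an adjusted p of 0.00131 but missed the fold threshold, and amounts to at least 1.13-fold. Myl4, the atrial and embryonic light chain, had 7.50 and 7.35 against 7.58, 7.79 and 7.67, and Fbxo32, which marks muscle atrophy, had 7.06 and 7.06 against 7.11, 7.26 and 7.38. Neither passed the test. Tnnc1, the slow and cardiac calcium sensor, had 7.05 and 7.04 against 7.17, 7.11 and 7.08, a difference of 0.08 log2 units. The fast troponin I Tnni2 had 6.96 and 6.98 against 6.88, 7.10 and 6.89 (log2 change -0.01, adjusted p = 0.96). The fast alpha-actinin Actn3 (6.90 and 6.87 against 6.88, 6.91 and 6.79) lay close to the threshold, with overlapping arrays. The slow troponin T Tnnt1 (6.75 and 6.66 against 6.72, 6.70 and 6.83) was at background in both groups.

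**Figure D2:**
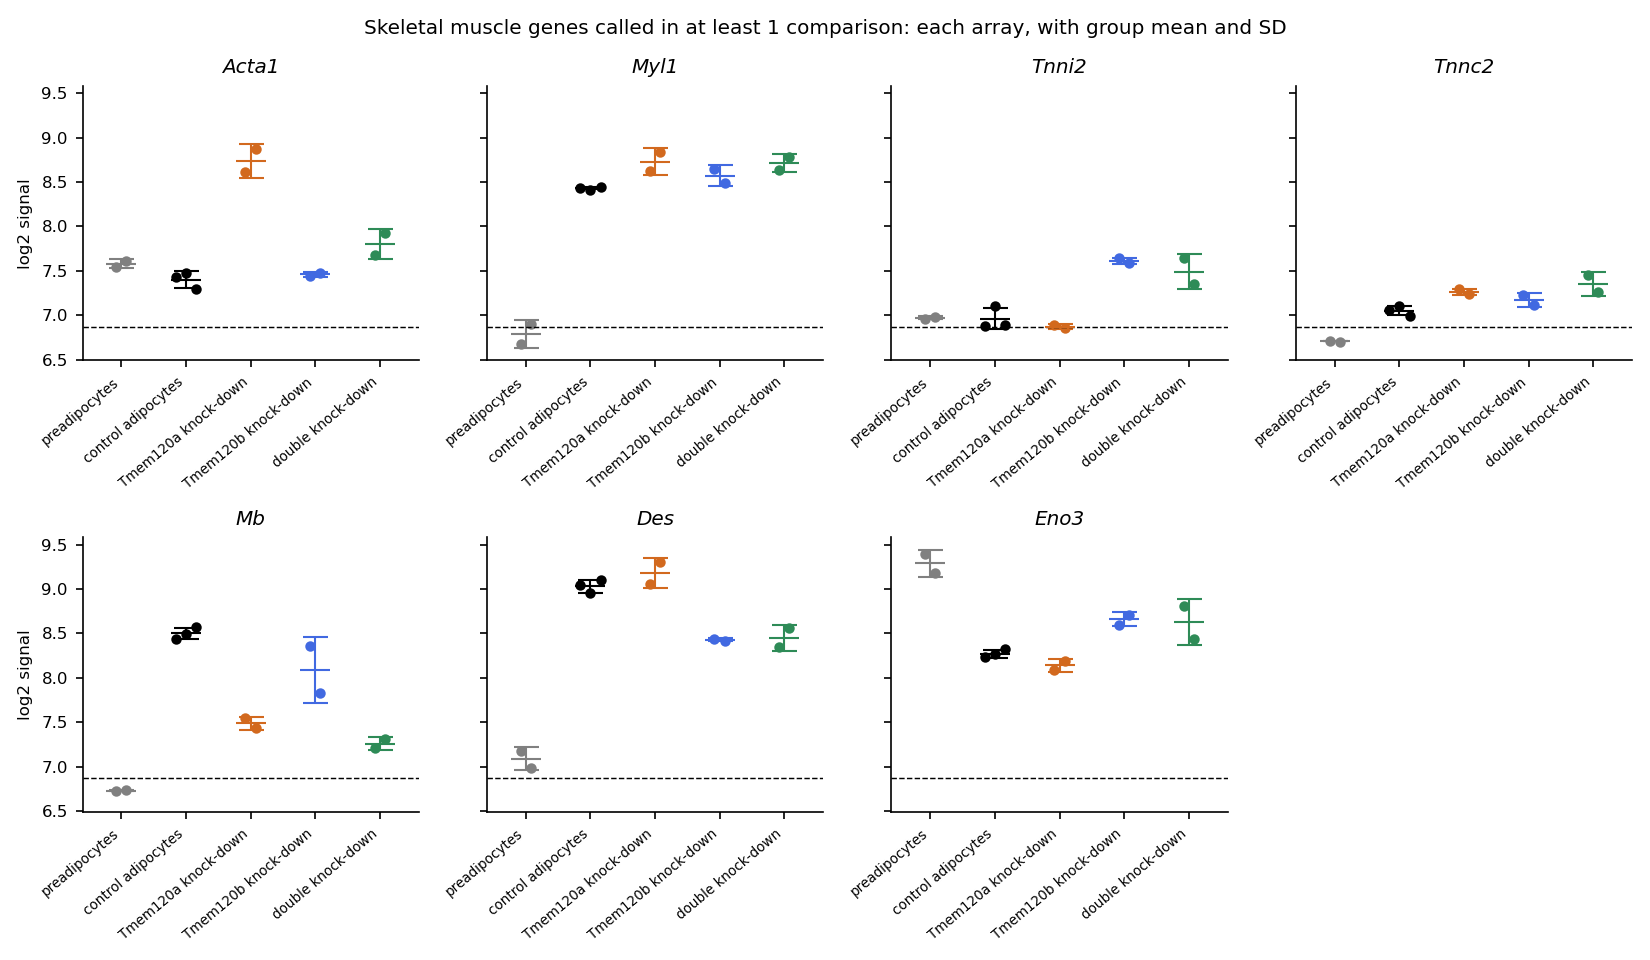
Log2 signal (vertical axis) of the 7 muscle genes called in at least 1 of the 10 comparisons, with 1 point per array, the group mean and its SD as bars, and a dashed line at the background threshold. Mb is high in control adipocytes and lower in the Tmem120a and double knock-downs, whereas Acta1 is highest in the Tmem120a knock-down, at 8.61 and 8.87.

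Knock-down of Tmem120a raised 1 muscle gene, Acta1, and lowered 1, Mb, among the 39. The share called over all genes was 3.15%, with 0.829% higher and 2.32% lower. Acta1 signals were 7.43, 7.47 and 7.29 in control adipocytes and 8.61 and 8.87 in the Tmem120a knock-down, with no overlap. The rise was 1.34 ± 0.090 (2.54-fold, adjusted p = 2.68e-06, limma), and both arrays lay above the preadipocytes too. Mb went down from 8.44, 8.49 and 8.57 to 7.55 and 7.44. It fell by 1.00 on the log2 scale (SE 0.11, 2-fold lower, adjusted p = 0.000135). The second Mb probe changed by -0.24 and did not pass the test (adjusted p = 0.248). With unscaled signals the Acta1 change was 0.58 and the Mb change -1.81, and both still passed.

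Nothing else among the muscle genes passed in the Tmem120a knock-down. Des was at 9.06 and 9.30, overlapping the control adipocytes, and Myl1 at 8.62 and 8.84, above their range by a log2 change of 0.30 that did not pass (adjusted p = 0.0524). Fbxo32 gave 7.38 and 7.60, Tnnc2 7.29 and 7.24, and Myl4 7.51 and 7.82. The troponins Tnni2 (6.89 and 6.85), Tnnc1 (7.05 and 7.34) and Tnnt1 (6.68 and 6.91) overlapped the controls, as did Actn3 (6.81 and 6.93). Eno3 lay at 8.09 and 8.19, a log2 change of -0.13 (adjusted p = 0.531).

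Acta1 belongs to a family of actins whose coding sequences are nearly alike, so its relatives are given beside it. Acta2, the smooth muscle alpha-actin that myofibroblasts also make, fell from 14.54 and 14.45 in preadipocytes to 10.31, 10.29 and 10.09 in control adipocytes. In the Tmem120a knock-down it was at 10.04 and 10.11, a log2 change of -0.16 against controls (adjusted p = 0.37). In the Tmem120b knock-down, where Acta1 stayed at 7.44 and 7.48, Acta2 stood at 12.02 and 11.94, higher by 1.75 (adjusted p = 7.29e-08). Acta1 thus passed the test in the Tmem120a knock-down, and Acta2 was called higher in the Tmem120b and double knock-downs. Among the other actins, Actg2 was called higher in the Tmem120b knock-down and Actb in the double knock-down. In the double knock-down Acta1 was also higher, by 0.41 (limma, adjusted p = 0.00799), under the fold threshold. Actc1 was at background on all arrays, Actg2 of smooth muscle, at background in control adipocytes, was at 6.91 and 7.25 in the Tmem120a knock-down (adjusted p = 0.0938) and cytoplasmic Actb changed by 0.12 (adjusted p = 0.54). How far the single Acta1 probe picks up other actin transcripts was not tested, as probe sequences were not at hand.

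**Figure D3:**
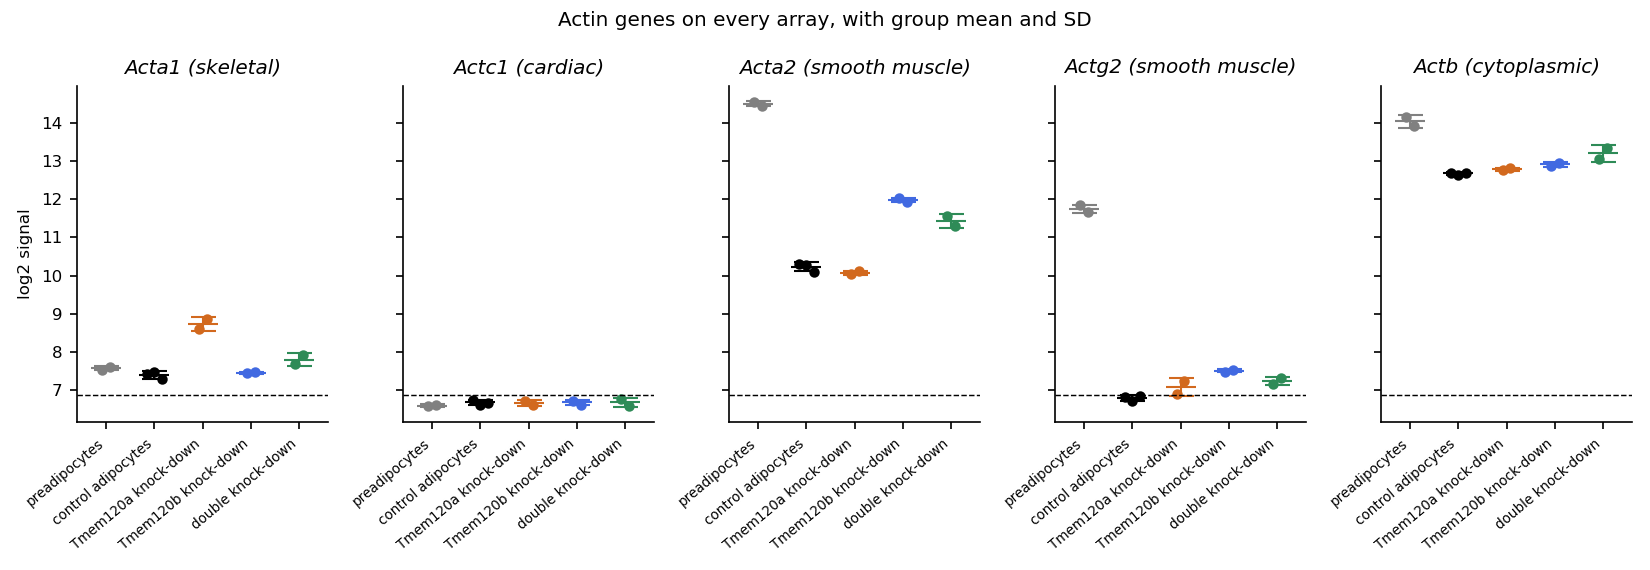
Log2 signal (vertical axis) of 5 actin genes by group, with 1 point per array, mean and SD as bars and a dashed line at the background threshold. Acta1 is highest in the Tmem120a knock-down, Actc1 stays at background, and Acta2 is at 14.54 and 14.45 in preadipocytes and higher in the Tmem120b and double knock-downs than in control adipocytes. Levels of different probes are not comparable between panels.

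Promoter sequence was looked up for these genes because serum response factor, which drives muscle actins, binds a CArG box. RefSeq windows of 300 bases (250 before the start site and 50 after it, build GRCm38.p6) were at hand for 33 of the 42 genes. The CArG box was searched on both strands and occurred in 3 of these genes, Acta1, Actc1 and Myh4, while 1.63% of all 32851 windows hold one. The MEF2 site occurred in 5 (Myh1, Myh4, Myh8, Casq2 and Ttn), beside 3.19% of all windows, and the E-box CANNTG bound by myogenic factors in 29, beside 72.3% of all windows. These are counts of genes, some with more than 1 window. Counted by window, as the shares are, 3 of 40 held a CArG box, 5 a MEF2 site and 35 an E-box. Of the 9 genes above background that had a window, 1 held a CArG box, 0 a MEF2 site and 8 an E-box. The 250 bases before the start site of the 3 genes with a CArG box are shown 5′ to 3′ on the strand of the gene, since only 1 of them was above background in these cells. Capitals mark the CArG box and, in Myh4, also a MEF2 site. The windows are chr8:123894776-123895025 (minus strand), chr2:114052876-114053125 (minus strand) and chr11:67237562-67237811 (plus strand).
Acta1: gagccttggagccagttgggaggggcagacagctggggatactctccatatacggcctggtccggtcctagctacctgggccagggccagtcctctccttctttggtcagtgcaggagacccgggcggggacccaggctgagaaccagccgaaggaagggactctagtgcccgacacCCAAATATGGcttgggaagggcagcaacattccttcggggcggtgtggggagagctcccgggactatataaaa
Actc1: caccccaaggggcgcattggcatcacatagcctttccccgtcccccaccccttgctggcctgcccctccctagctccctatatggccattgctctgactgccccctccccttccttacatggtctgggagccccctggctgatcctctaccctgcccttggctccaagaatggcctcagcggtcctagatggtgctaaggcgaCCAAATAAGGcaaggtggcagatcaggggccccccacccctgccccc
Myh4: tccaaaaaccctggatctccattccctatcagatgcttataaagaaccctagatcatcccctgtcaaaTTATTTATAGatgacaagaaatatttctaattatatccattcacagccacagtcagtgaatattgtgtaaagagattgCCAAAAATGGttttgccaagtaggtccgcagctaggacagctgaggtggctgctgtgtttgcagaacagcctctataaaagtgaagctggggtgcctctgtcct
Counted from the start site, the CArG box began at -73 in Acta1, at -47 in Actc1 and at -104 in Myh4. Acta1 was above background in all 5 groups, whereas Actc1 and Myh4 were at background on all 11 arrays. A match describes these letters only and shows no binding.

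Knock-down of Tmem120b raised Tnni2 and lowered Des. Over all genes 7.87% were called, with 3.83% higher and 4.04% lower. Tnni2, the inhibitory troponin subunit of fast fibres, was near the threshold in control adipocytes, at 6.88, 7.10 and 6.89. It stood at 7.64 and 7.59 in the Tmem120b knock-down, higher by 0.65 ± 0.086 (1.57-fold, adjusted p = 0.00016, limma). Scaling to a common median reduced this to 0.47, below the fold threshold, and unscaled signals to 0.12 (adjusted p = 0.284). Des was at 8.44 and 8.41, below all control adipocytes, and fell by 0.60 on the log2 scale (SE 0.088, adjusted p = 0.000383). With a common median the Des change was -1.08 and with unscaled signals -1.42.

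Further muscle genes shifted in the Tmem120b knock-down by less than the fold threshold. Mb was at 8.36 on 1 array and at 7.83 on the other, a spread (SD 0.37) wider than in any other group, and its log2 change of -0.40 had an adjusted p of 0.0305. Eno3 was at 8.60 and 8.71, higher by 0.38 (adjusted p = 0.0182). Tnnt1 reached 7.18 and 6.95, its only group above background on every array, higher than the controls by 0.32 (at least 1.15-fold, adjusted p = 0.0358). Actn3 was at 7.00 and 6.98, Tnnc1 at 7.32 and 7.20 and Tnnc2 at 7.23 and 7.11, none past the test. Myl1 (8.65 and 8.49), Myl4 (7.80 and 7.61) and Fbxo32 (7.28 and 7.23) had log2 changes of 0.14, 0.02 and 0.01.

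The double knock-down raised Tnni2 and lowered Des and Mb, while 7.25% of all genes were called, 3.29% higher and 3.96% lower. Mb fell furthest, to 7.21 and 7.31, a log2 change of -1.24 ± 0.11 (2.36-fold lower, adjusted p = 9.58e-06, limma), and its second probe fell by 0.69 (adjusted p = 0.000758). Des was at 8.35 and 8.56, a change of -0.58 (adjusted p = 0.000577) that became -0.47 without double knock-down replicate 1. Tnni2 was at 7.64 on 1 array and 7.35 on the other, higher by 0.54 (adjusted p = 0.000812). Its call rested on single arrays: the change was 0.39 without double knock-down replicate 1 and 0.50, just short of the threshold, without control replicate 1. It was 0.45 with a common median and 0.18 with unscaled signals (adjusted p = 0.151).

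Acta1 in the double knock-down lay between the other groups, at 7.68 and 7.92, above all control adipocytes by 0.41 (adjusted p = 0.00799), under the fold threshold. Eno3 (8.81 and 8.44), Tnnc2 (7.45 and 7.26) and Myl1 (8.64 and 8.78) also had an adjusted p of 0.05 or less with changes of 0.35, 0.30 and 0.28. Myl4 (7.76 and 7.65), Fbxo32 (7.32 and 7.16), Tnnc1 (7.14 and 7.07), Tnnt1 (6.99 and 6.78) and Actn3 (6.87 and 7.12) did not. The 3 comparisons with control adipocytes share the same 3 control arrays, so their agreement on Des, Mb or Tnni2 is not independent.

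**Figure D4:**
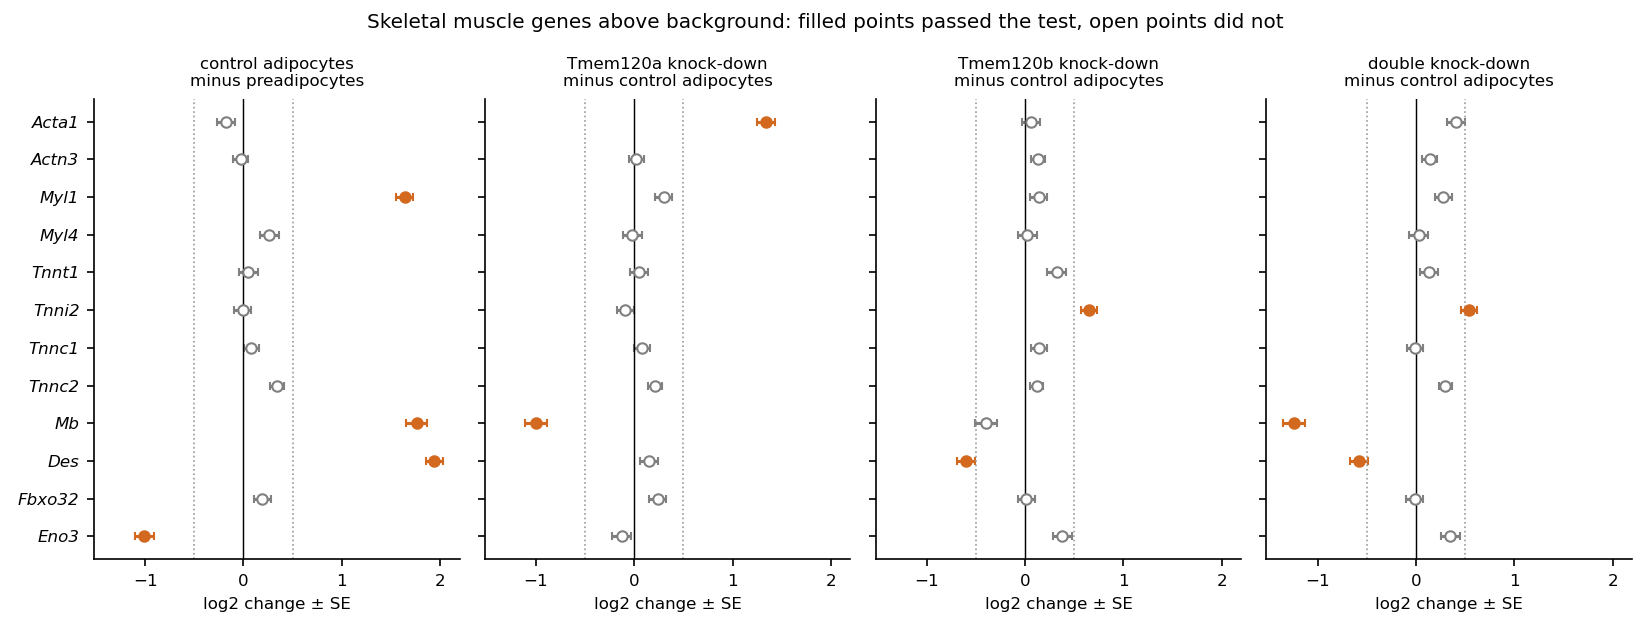
Log2 change with its standard error (horizontal axis) of the 12 muscle genes above background in at least 1 group, for control adipocytes against preadipocytes and for each knock-down against control adipocytes. Filled points passed the test, open points did not, and dotted lines mark changes of 0.5. Mb is at 1.76 in the first panel and left of 0 in the others, at -1.24 in the double knock-down.

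The knock-downs were also tested against each other. Acta1 was higher in the Tmem120a than in the Tmem120b knock-down by 1.28 ± 0.099 (adjusted p = 5.55e-06, limma), and the double knock-down was below the Tmem120a knock-down by 0.94 on the log2 scale (adjusted p = 9.87e-05). With unscaled signals the latter change was -0.67 and did not pass (adjusted p = 0.205). The double and the Tmem120b knock-down differed in Acta1 by 0.35 with an adjusted p of 0.232. Des was higher in the Tmem120a than in the Tmem120b knock-down by 0.76 and lower in the double than in the Tmem120a knock-down, with a change of -0.73. With a common median neither Des difference passed (adjusted p = 0.0576 and 0.149). Tnni2 differed in the opposite direction, by -0.74 for Tmem120a minus Tmem120b and by 0.62 for double minus Tmem120a, the latter 0.48 without double knock-down replicate 1.

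Mb was lower in the Tmem120a than in the Tmem120b knock-down by a change of -0.60 (adjusted p = 0.00765), which rested on Tmem120b knock-down replicate 1: without that array the change was -0.34, and without Tmem120a knock-down replicate 2 the adjusted p was 0.0544. It was lower in the double than in the Tmem120b knock-down by a change of -0.83 (adjusted p = 0.0195), and without double knock-down replicate 2 the adjusted p was 0.0673. Neither Mb difference passed when only the groups compared were fitted (adjusted p = 0.0518 and 0.345) or with a common median (0.0722 and 0.531). On the second Mb probe the differences were -0.20 (limma, adjusted p = 0.407) and -0.64 (adjusted p = 0.0508), and neither passed. Eno3 was lower in the Tmem120a than in the Tmem120b knock-down by a change of -0.52 (adjusted p = 0.00758). That became -0.46 without Tmem120a knock-down replicate 1 (adjusted p = 0.0644) and -0.46 without Tmem120b knock-down replicate 2 (adjusted p = 0.0675), and had an adjusted p of 0.262 with a common median. Of the 39 genes, Tmem120a against Tmem120b called 5 (6.42% of all genes), double against Tmem120a 3 (4.87%) and double against Tmem120b 1 (0.199%).

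Set against preadipocytes, which the study used as its reference, each knock-down was higher in Des and Myl1. Des was higher than in preadipocytes by 2.10 in the Tmem120a knock-down, by 1.34 in the Tmem120b knock-down and by 1.36 in the double knock-down. Myl1, above background on 1 of 2 preadipocyte arrays, was higher by 1.94, 1.78 and 1.92 in signal. Mb was higher by 0.76 (at least 1.54-fold), 1.36 (at least 2.33-fold) and 0.53 (at least 1.31-fold), the last being 0.48 without double knock-down replicate 2. With unscaled signals Mb did not pass in the Tmem120a and double knock-downs, at 0.41 and 0.38 (limma, adjusted p = 0.103 and 0.222). The second Mb probe was higher by 0.75, 0.95 and 0.30, and the last did not pass (adjusted p = 0.086). Eno3 was lower than in preadipocytes in all 3, with changes of -1.15, -0.63 and -0.66, and the last was -0.47 without double knock-down replicate 2. With a common median this last change was -0.57 and with unscaled signals -0.69, and neither passed (limma, adjusted p = 0.0621 and 0.0887).

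Thin filament genes added to this set in some knock-downs. Acta1 was above preadipocytes by 1.16 in the Tmem120a knock-down (adjusted p = 7.26e-07) and not past the test in the others, with changes of -0.12 and 0.23. Tnni2 was higher by 0.64 in the Tmem120b knock-down and by 0.52 in the double knock-down, the latter 0.38 without double knock-down replicate 1. With unscaled signals the Tnni2 changes were 0.32 and 0.38, and neither passed (limma, adjusted p = 0.0891 and 0.0652). Tnnc2 was higher by 0.56 (at least 1.31-fold) in the Tmem120a knock-down and by 0.65 (at least 1.4-fold) in the double knock-down. In the Tmem120b knock-down its change of 0.47 (limma, adjusted p = 0.000259) missed only the fold threshold. With a common median the Tmem120a change in Tnnc2 was 0.45, below the fold threshold. With unscaled signals it was 0.23 (adjusted p = 0.174) and the double knock-down change was 0.49, and neither was called. In all, 6 of the 39 genes were called in the Tmem120a knock-down against preadipocytes (24.2% of all genes), 5 in the Tmem120b knock-down (22.6%) and 6 in the double knock-down (23.1%).

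A wider list of 94 other skeletal muscle genes, 82 of them measured, had 40 at background on every array, among them Pax7, Mymk, Mstn, Musk, Cav3 and Pvalb. With differentiation 7 rose and 6 fell, where 23% of all genes were called. In the Tmem120a, Tmem120b and double knock-downs, reported below, the shares over all genes were 3.15%, 7.87% and 7.25%. Cox8b, a cytochrome c oxidase subunit of muscle and brown fat, rose from background to a signal at least 58-fold higher. The fetal and cardiac stretch gene Ankrd1 fell by 3.63 in signal, to a level above background on 1 of 3 control arrays. The tropomyosins Tpm2 and Tpm1, also made in smooth muscle and fibroblasts, fell by 2.35 and by 1.72 on the log2 scale. In the Tmem120a knock-down 1 rose (Sgcb, a sarcoglycan, by 0.61) and 2 fell (Cox6a2, the muscle form of an oxidase subunit, with a change of -0.94, and Tpm2, with -0.58). In the Tmem120b knock-down 6 rose and 2 fell, with Flnc, the muscle filamin, at 1.11, Eya1 at 0.72, Ankrd1 at 0.60 and Cox8b at -1.21. In the double knock-down 5 rose and 3 fell, with Eya1 at 0.81, Flnc at 0.83, Cox8b at -1.42 and the chaperone Hspb8 at -0.67.

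Markers of other cell types moved in the same comparisons, and their part in the changes of the muscle genes was not tested. Beside the counts below, 23% of all genes were called with differentiation. The shares in the Tmem120a, Tmem120b and double knock-downs were 3.15%, 7.87% and 7.25%. Of 22 smooth muscle and myofibroblast markers, 2 rose and 14 fell with differentiation, 0 rose and 1 fell in the Tmem120a knock-down, 8 rose and 0 fell in the Tmem120b knock-down, and 3 rose and 0 fell in the double knock-down. Their mean signal was 9.98 to 9.99 in preadipocytes, 8.55 to 8.61 in control adipocytes, 8.51 to 8.54, 8.93 to 8.96 and 8.85 to 8.88 in the Tmem120a, Tmem120b and double knock-downs, and Cnn1, Lmod1 and Synpo2 were at background throughout. Among 34 non-muscle and smooth muscle relatives of the muscle genes, 7 rose and 10 fell with differentiation, 0 and 1 in the Tmem120a knock-down, 7 and 2 in the Tmem120b knock-down, and 5 and 1 in the double knock-down. The neuronal enolase Eno2 fell in all 3 knock-downs, by 1.25, by 0.86 and by 1.00, whereas Eno3 did not pass the test in any of them.

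Fewer fat cell markers passed the test in the knock-downs than with differentiation, and the same held over all genes. The shares of all genes called were 23% with differentiation and 3.15%, 7.87% and 7.25% in the Tmem120a, Tmem120b and double knock-downs. Of 19 adipocyte markers, 2 rose and 1 fell in the Tmem120a knock-down, 1 rose and 4 fell in the Tmem120b knock-down, and 0 rose and 3 fell in the double knock-down. Of 15 brown and beige fat markers, 7 rose with differentiation and 0 fell, and 1, 4 and 4 fell in the Tmem120a, Tmem120b and double knock-downs with 0 higher. Their mean signal was 6.82 to 6.83 in preadipocytes, 7.97 to 7.99 in control adipocytes and 7.83 to 7.90, 7.64 to 7.71 and 7.53 to 7.58 in the knock-downs. Ucp1 was at background on every array. Of 15 preadipocyte and fibroblast markers, 4 rose and 3 fell with differentiation, and 0 and 4, 3 and 2, and 3 and 1 rose and fell in the Tmem120a, Tmem120b and double knock-downs. Of 15 macrophage and endothelial markers, 0 changed with differentiation or in the Tmem120a knock-down, and 1, Lyz2, rose in each of the others.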

How the data were processed

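RNA of 11 samples was labelled with biotin as cRNA and read on Illumina MouseWG-6 v2 BeadChips, 1 array each. The authors deposited log2 probe signals for 45281 probes in a non-normalised and a quantile-normalised table; the sources used here do not give bead summary, background treatment, chip or position, and 0 columns were left unused. The normalised table was tested with limma 3.58.1 in R 4.3.3 (5 group means, 6 residual degrees of freedom plus 6.15 from moderation, Benjamini-Hochberg over all 45281 probes, all adjusted p-values in the text). The study's methods name the moderated F statistic; here contrasts were tested, with F as an alternative. Of the probes, 34885 carried 1 symbol, 18 several and 10378 none, from the platform annotation. A fold against a group at background is given as "at least", counted from the threshold or the group's own higher signal.

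Values on every array are given for genes above background on every array of at least 1 group, and in other lists up to 4 called genes with the largest moderated statistic per comparison are named, with a few at background added. These genes, lists and tests were chosen with earlier results of these data known. Alternatives changed the scaling, background correction, filters, probe choice, test, replicate block and the arrays included. The number of arrays limits the precision.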

Additional observations from a re-analysis of the deposited data

Results flagged for a closer look

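The following muscle genes differed between knock-downs by a test of the difference itself (limma contrast, log2 change, adjusted p over all probes). Acta1 differed by 1.28 between the Tmem120a and Tmem120b knock-downs (5.55e-06) and by -0.94 between the double and the Tmem120a knock-down (9.87e-05). Tnni2 differed by -0.74 and by 0.62 in the same comparisons (0.000226 and 0.00117), and Des by 0.76 and by -0.73 (0.000237 and 0.000475). Mb differed by -0.60 between the Tmem120a and Tmem120b knock-downs (0.00765) and by -0.83 between the double and the Tmem120b knock-down (0.0195). On the second Mb probe neither difference passed (0.407 and 0.0508). Eno3 differed by -0.52 between the Tmem120a and Tmem120b knock-downs (0.00758). The calls for Mb and Eno3, and that for Tnni2 between the double and the Tmem120a knock-down (0.48 without double knock-down replicate 1), depended on single arrays. With a common median the Des, Mb and Eno3 differences did not pass (adjusted p of 0.0576 or more). Unscaled signals also ended the calls of the Acta1 difference of -0.94 and the Tnni2 difference of -0.74 (adjusted p = 0.205 and 0.0594). No group held the 4 arrays needed to ask whether 1 array stood apart from the rest.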

How the results depend on the processing

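The 37 called changes of muscle genes were recomputed under 21 alternatives that could end a call, which gave 777 values: 737 kept direction and call, 40 lost the call and 0 reversed. The share kept is no measure of robustness, since several alternatives lay close to the main fit. Own quantile normalisation moved no signal by more than 0.0398, and an array left out was often in neither group compared. Of the 37 calls, 17 were lost with unscaled signals and 9 with a common median, and the cause was not tested. With unscaled signals 9 of 39 muscle genes were called in the Tmem120a and 6 in the Tmem120b knock-down in place of 2 each, beside 43% and 35% of all genes. Among the knock-downs 2 were called with unscaled signals and 2 with a common median in place of 5. Calls over all genes dropped too. Tmem120a against Tmem120b gave 118 with unscaled signals and 574 with a common median in place of 1223. Double against Tmem120a gave 106 and 504 in place of 929, and double against Tmem120b 0 and 0 in place of 38. Without the fold threshold the Tmem120b knock-down gave 5 in place of 2 (20.2% of all genes) and the double knock-down 7 in place of 3 (19.3%). Over all genes, a common median turned 158 higher and 442 lower calls in the Tmem120a knock-down into 7 and 2626, 729 and 770 in the Tmem120b knock-down into 156 and 2515, 627 and 755 in the double knock-down into 154 and 1597, and 2267 and 2110 with differentiation into 3605 and 1261. Unscaled signals moved the median change of all genes to -0.44, -0.37 and -0.29 in the knock-downs and to 0.15 with differentiation.

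The count of 12 genes above background became 20 with a threshold at 2 spreads, 10 at 6 spreads, 22 where 1 array sufficed and 39 at the log2 6.5 of the methods, which lies under the background mode. Leaving out 1 array at a time gave 12 to 15 genes above background, and 4 to 4, 2 to 2, 2 to 3 and 2 to 4 called with differentiation and in the Tmem120a, Tmem120b and double knock-downs, 4 to 5 among knock-downs and 7 to 8 against preadipocytes. Whether replicate numbers pair the samples could not be settled. Deviations of same-numbered arrays correlated at -0.141 to 0.217, but in a group of 2 arrays these mirror each other, so no reference spread exists. With a replicate block the counts stayed at 4, 2, 2, 3, 5 and 7. Signal over background limits most of these genes: 27 of 39 could not be measured in any whole group.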
